A study of Homo sapiens with 372 samples.

Results

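The 10 tubulin genes were the alpha tubulins TUBA1A, TUBA1B and TUBA1C, the beta tubulins TUBB, TUBB2A, TUBB2B, TUBB3, TUBB4B and TUBB6, and the gamma tubulin TUBG1. They were picked out by gene symbol from the 9664 genes listed for single A2780 cells, and all 10 were found. A2780 is a widely used ovarian cancer line of human origin. Its cells were left untreated (Ctrl, 46 cells) or treated with paclitaxel at 5 nM for 16 h (Pac16h, 56 cells) or 48 h (Pac48h, 53 cells). Others received celecoxib at 75 µM for 2 h (Cele2h, 63 cells) or 16 h (cele16h, 61 cells), or both drugs at these doses for 16 h (PacCele16h, 59 cells). Paclitaxel binds microtubules and celecoxib inhibits cyclooxygenases. Cells were captured on the Fluidigm C1 system, and the sample descriptions carry 1 identifier per condition and name no replicate culture. The drug and whatever else that identifier marks cannot be told apart, and single cells do not stand in for replicate cultures. For this reason no test between conditions was made, and every SD is a spread over cells. The descriptions also number the libraries, and runs of 96 such numbers are called index blocks here. What a block stands for is not stated.

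Microtubules are hollow polymers of heterodimers, each made of an alpha and a beta tubulin. Both subunits are encoded by several genes, the isotypes, whose proteins copolymerize. Paclitaxel binds the beta subunit inside the polymer and stabilizes it. Gamma tubulin is not part of the polymer wall and sits in ring complexes at the centrosome, from which microtubules grow. Cells also adjust the stability of alpha and beta tubulin mRNA to the amount of free dimer, through the protein TTC5, which recognizes nascent tubulin chains at the ribosome.

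Levels were deposited as E-values, log2(N/10 + 1), in which N stands for TPM scaled to the most abundant spike-in RNA of each cell. TPM is corrected for transcript length, so that levels of different genes can be compared. A member is said below to have passed the limit when its mean E-value in treated cells differed from that of the reference cells by over 0.58, the log2 of 1.5. Because fewer cellular transcripts per spike-in lower every gene, each difference is also given after all cells were set to the same total. Relative to Ctrl, the median total per cell was between 2.87-fold lower in cele16h and 1.40-fold higher in PacCele16h. On the spike-in scale the median difference of all genes from Ctrl was -0.41 in Pac16h, -0.26 in Pac48h, -0.26 in Cele2h, -0.48 in cele16h and 0.33 in PacCele16h. At the same total these medians lay between -0.07 and 0.03. The median number of genes detected per cell was between 6126 and 6630, and read numbers per cell are not known here. Of 6 epithelial markers looked for, KRT18 was listed, at mean E-values between 0.45 and 1.11 by condition. Of 8 markers of other cell types, COL1A2 was listed, at 0.20 to 0.96.

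The 3 alpha tubulin genes lie within a cluster on chromosome 12 (hg38), where TUBA1B spans chr12:49127782-49131397 and TUBA1A chr12:49184686-49189080, both on the minus strand. TUBA1C is annotated at chr12:49188736-49274600 on the plus strand, so that its first annotated bases overlap the start of TUBA1A, and Smart-seq2 libraries keep no strand that would separate reads from that overlap. TUBB lies at chr6:30717435-30725538, and TUBB2A and TUBB2B are neighbours elsewhere on that chromosome, at chr6:3153497-3157544 and chr6:3223324-3231730. TUBB3 was at chr16:89921392-89938761, TUBB4B at chr9:137241287-137243707, TUBB6 at chr18:12307669-12344320 and TUBG1 at chr17:42609641-42615238. All alpha and beta members have 4 exons in their canonical transcript, and TUBG1 has 11.

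Several of these genes are close copies, which limits how surely a read can be given to one of them. The coding sequences of TUBA1A and TUBA1B were identical at 97.2% of positions and those of TUBB2A and TUBB2B at 98.2%. The share of 50-base windows of the transcript that also occurred in a transcript of another gene was 47.3% for TUBA1A, 62.7% for TUBA1B and 26.7% for TUBA1C. This share was 64.6% for TUBB2A, 54.9% for TUBB2B and 92.8% for TUBB3, for which an overlapping gene model named by its identifier alone shared all of those windows. It was lower for TUBB (19.3%, mostly with the pseudogene TUBBP1), TUBB4B (10.4%), TUBB6 (1.09%) and TUBG1 (30.0%, mostly with its paralog TUBG2). TUBA1C was identical to TUBA1B at 96.8% and to TUBA1A at 95.9% of coding positions, and 57.1% of its coding windows were shared. The split of the alpha level between TUBA1A, TUBA1B and TUBA1C, that of TUBB2A against TUBB2B and the level of TUBB3 are therefore uncertain to the extent that the estimation step divided shared reads.

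The 250 bases before the RefSeq transcription start (GRCh38.p14, 5′ to 3′ on the strand of the gene) are shown for the 6 members on which the results below turn. Capitals mark CCAAT on either strand (the CCAAT box), TTTGAA on either strand (the cell cycle homology region, CHR, found in many promoters of mitotic genes) and GGGCGG on either strand (the GC box). The windows were chr12:49131396-49131645 on the minus strand for TUBA1B, chr12:49189081-49189330 on the minus strand for TUBA1A, chr6:30720102-30720351 for TUBB, chr9:137241037-137241286 for TUBB4B, chr18:12307991-12308240 for TUBB6 and chr17:42609433-42609682 for TUBG1, the last 4 on the plus strand.
TUBA1B: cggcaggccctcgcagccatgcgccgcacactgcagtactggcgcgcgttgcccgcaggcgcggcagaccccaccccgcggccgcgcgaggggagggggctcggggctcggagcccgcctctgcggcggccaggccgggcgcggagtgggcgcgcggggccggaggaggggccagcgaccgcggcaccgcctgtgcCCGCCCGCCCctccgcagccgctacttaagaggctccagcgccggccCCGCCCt
TUBB: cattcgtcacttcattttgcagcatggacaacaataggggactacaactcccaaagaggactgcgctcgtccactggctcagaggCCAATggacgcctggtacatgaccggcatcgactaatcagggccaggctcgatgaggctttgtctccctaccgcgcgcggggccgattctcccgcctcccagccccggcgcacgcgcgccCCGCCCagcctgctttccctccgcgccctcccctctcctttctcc
TUBB4B: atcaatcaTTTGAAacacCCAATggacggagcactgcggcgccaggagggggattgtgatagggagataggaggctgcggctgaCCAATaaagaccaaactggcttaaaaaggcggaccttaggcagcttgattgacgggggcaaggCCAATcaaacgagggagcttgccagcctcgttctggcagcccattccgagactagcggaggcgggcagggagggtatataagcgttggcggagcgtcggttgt
TUBG1: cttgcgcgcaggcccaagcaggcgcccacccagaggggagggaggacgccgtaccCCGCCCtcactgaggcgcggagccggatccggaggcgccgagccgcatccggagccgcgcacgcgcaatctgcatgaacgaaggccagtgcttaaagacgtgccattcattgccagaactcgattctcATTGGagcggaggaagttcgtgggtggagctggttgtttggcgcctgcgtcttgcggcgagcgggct
TUBA1A: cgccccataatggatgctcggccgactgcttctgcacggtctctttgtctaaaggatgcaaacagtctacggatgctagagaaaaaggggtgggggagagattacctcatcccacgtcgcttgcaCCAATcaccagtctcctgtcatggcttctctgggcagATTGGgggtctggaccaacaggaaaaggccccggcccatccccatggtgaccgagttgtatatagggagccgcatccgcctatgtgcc
TUBB6: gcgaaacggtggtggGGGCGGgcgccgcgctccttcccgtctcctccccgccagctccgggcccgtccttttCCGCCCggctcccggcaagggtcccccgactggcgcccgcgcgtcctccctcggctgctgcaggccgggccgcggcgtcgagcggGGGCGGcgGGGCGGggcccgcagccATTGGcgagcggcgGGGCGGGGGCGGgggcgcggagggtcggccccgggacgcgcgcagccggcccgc
TUBA1B held 3 GC boxes, the first pair of which overlap, and no CCAAT box or CHR. TUBB held 1 CCAAT box and 1 GC box. TUBB4B held 3 CCAAT boxes and 1 CHR. TUBG1 held 1 CCAAT box and 1 GC box. TUBA1A held 2 CCAAT boxes and neither of the other motifs, and TUBB6 held 1 CCAAT box and 6 GC boxes. Of the 4 members not shown, TUBA1C held 2 CHR motifs, 1 CCAAT box and 2 GC boxes, TUBB2A held 5 GC boxes alone, and TUBB2B and TUBB3 held no CHR. Among 35116 windows of the same length, 32.0% held a CCAAT box, 13.3% a CHR and 42.6% a GC box. A match describes the letters of the window and not a bound site.

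Among the alpha tubulins, TUBA1B, the major alpha isotype of proliferating cells, had the highest level. Its E-value in Ctrl cells had a median of 8.63 and a range of 3.46 to 9.68. The median was 7.36 (range 4.97 to 10.43) in Pac16h and 7.14 (0.16 to 9.50) in Pac48h. It was 6.54 (0.09 to 9.76) in Cele2h, 5.01 (0.15 to 9.22) in cele16h and 9.07 (5.56 to 11.00) in PacCele16h. The ranges of all 6 conditions overlapped, but 60 of 61 cele16h cells lay below the Ctrl median and 15 lay below every Ctrl cell. Conversely, 11 of 59 PacCele16h cells lay above every Ctrl cell. The mean E-value was 8.24 ± 1.32 (SD over 46 cells) in Ctrl and 4.88 ± 1.86 (61 cells) in cele16h, a difference of -3.37 on the spike-in scale and -2.03 at the same total. The difference from Ctrl was -2.00 in Cele2h (-1.44 at the same total) and -1.39 in Pac48h (-0.78). In Pac16h it was -0.90 but only -0.09 at the same total. In PacCele16h its sign depended on the scale, with 0.56 on the spike-in scale and -0.14 at the same total.

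TUBA1C, a close relative of TUBA1B, had a mean E-value of 5.75 ± 1.74 in Ctrl, 4.94 ± 1.43 in Pac16h and 4.84 ± 1.25 in Pac48h. It was 4.16 ± 1.77 in Cele2h, 2.81 ± 1.66 in cele16h and 6.12 ± 1.31 in PacCele16h. The order of the conditions was that of TUBA1B. The TUBA1C difference passed the limit on both scales in Cele2h (-1.59, and -1.04 at the same total) and cele16h (-2.94 and -1.74). In Pac16h the TUBA1C difference was -0.80, and -0.01 at the same total.

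TUBA1A, the alpha isotype best known from postmitotic neurons, had another order of conditions. Its E-value in Ctrl cells had a median of 4.27 and a range of 0.00 to 6.62. The median was 3.51 (range 0.00 to 5.93) in Pac16h, 4.56 (0.00 to 6.42) in Pac48h and 3.44 (0.00 to 5.88) in Cele2h. It was 2.43 (0.00 to 5.06) in cele16h and 6.13 (0.42 to 8.70) in PacCele16h. With both drugs, 51 of 59 cells lay above the Ctrl median and 12 above every Ctrl cell, though the ranges overlapped. The mean TUBA1A level rose from 3.85 ± 1.74 in Ctrl to 5.75 ± 1.41 in PacCele16h, a difference of 1.91, and of 1.14 at the same total. It was also higher in Pac48h, by 0.60 on the spike-in scale, just over the limit, and by 1.08 at the same total. Pac48h cells of the index block that they share with Ctrl (31 cells) gave 0.56, under the limit, and 0.93 at the same total. In the median over cells and in the ratio of linear means, the Pac48h difference of TUBA1A was also under the limit on the spike-in scale. With equal totals, TUBA1A differed by -0.06 in Pac16h, 0.10 in Cele2h and -0.56 in cele16h, none past the limit.

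**Figure D1:**
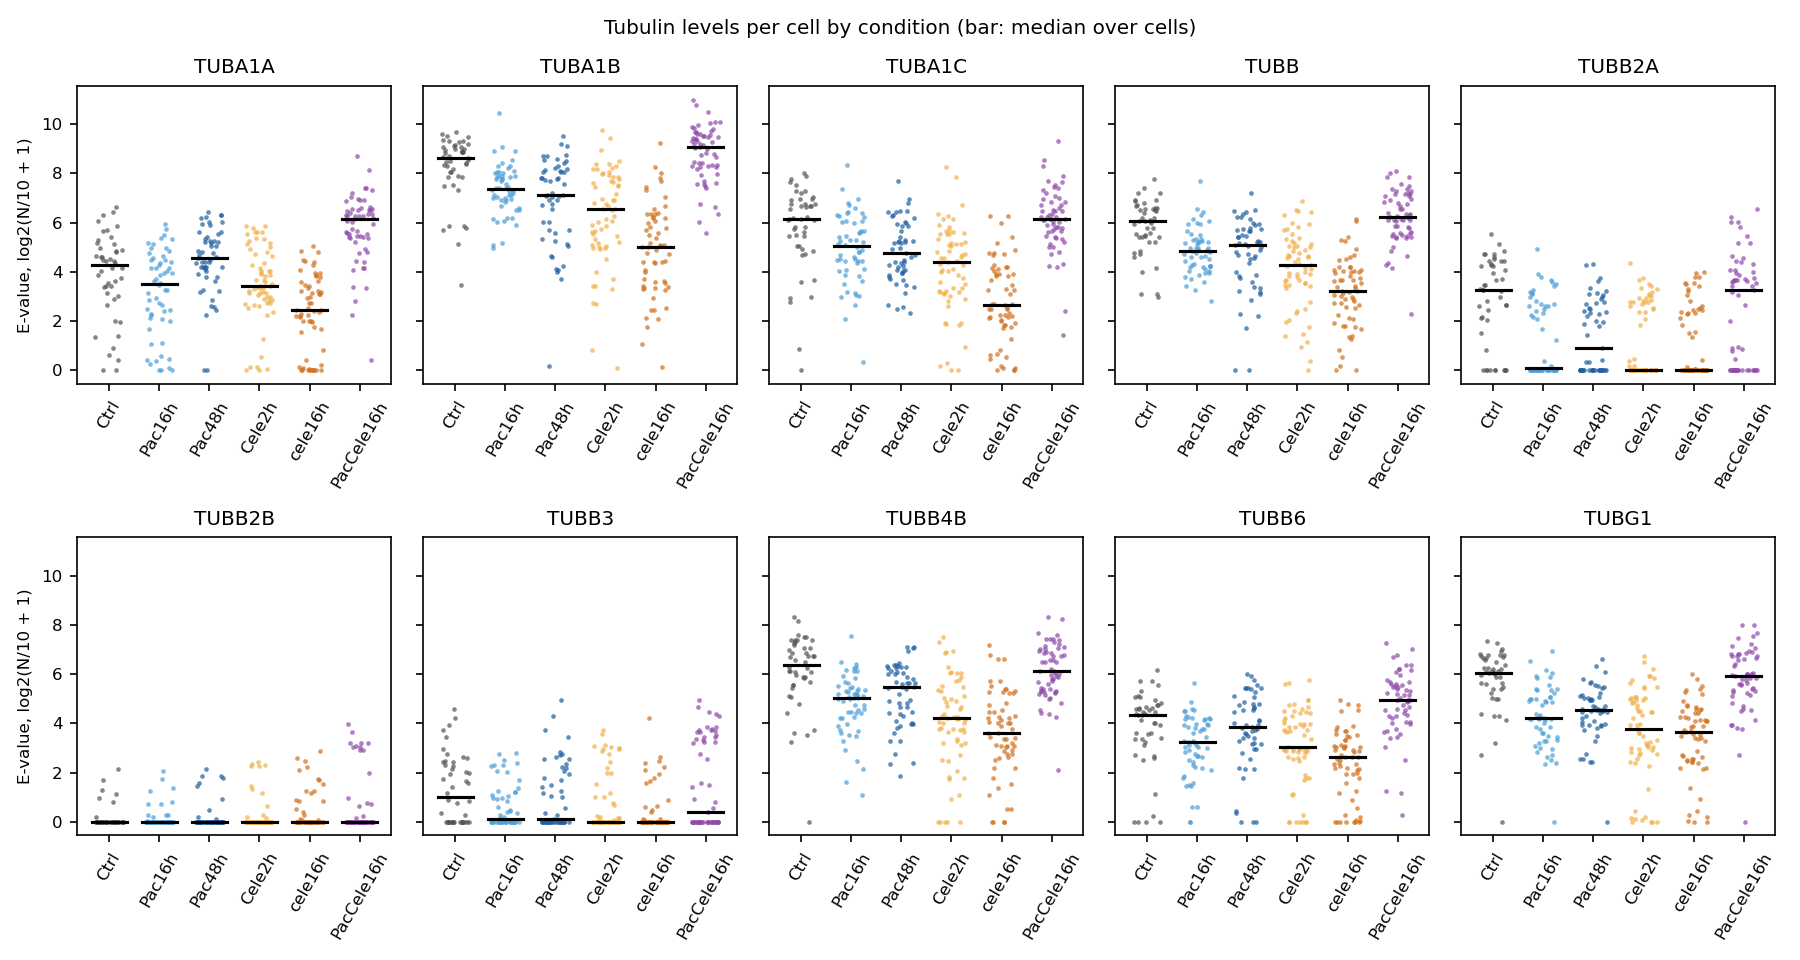
E-values, log2(N/10 + 1), of the 10 tubulin genes in each of the 338 cells by condition, 1 point per cell, with the median over cells as a bar. TUBA1A, TUBA1B, TUBA1C, TUBB, TUBB4B, TUBB6 and TUBG1 had their lowest medians in cele16h. TUBA1A, TUBA1B, TUBA1C, TUBB and TUBB6 had their highest in PacCele16h, and all conditions overlap on this spike-in scale.

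Among the beta tubulins, which carry the paclitaxel site, TUBB4B and TUBB were the most abundant. TUBB4B had a median E-value of 6.38 (range 0.00 to 8.32) in Ctrl, 5.02 (1.10 to 7.54) in Pac16h and 5.46 (1.86 to 7.11) in Pac48h. It was 4.22 (0.00 to 7.52) in Cele2h, 3.62 (0.00 to 7.17) in cele16h and 6.12 (2.12 to 8.30) in PacCele16h. All these ranges overlap, and that of Ctrl began at 0.00, so no cell could lie below it. The Ctrl median of TUBB4B lay above 57 of 61 cele16h cells and 58 of 63 Cele2h cells. The difference in mean TUBB4B level from Ctrl was -2.09 in Cele2h and -2.53 in cele16h, and -1.54 and -1.27 at the same total. It was -1.35 in Pac16h and -0.98 in Pac48h, but within the limit at the same total (-0.54 and -0.34). In PacCele16h, TUBB4B differed by 0.01 on the spike-in scale and by -0.63, past the limit, at the same total.

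TUBB, the constitutive class I beta isotype, had a median E-value of 6.04 (range 2.99 to 7.76) in Ctrl, 4.85 (2.80 to 7.70) in Pac16h and 5.09 (0.00 to 7.21) in Pac48h. It was 4.29 (0.00 to 6.89) in Cele2h, 3.24 (0.00 to 6.15) in cele16h and 6.21 (2.27 to 8.10) in PacCele16h. The ranges overlap, yet 25 of 61 cele16h cells and 13 of 63 Cele2h cells lay below every Ctrl cell for TUBB. The mean difference of TUBB from Ctrl was -1.73 in Cele2h and -2.66 in cele16h, and -1.20 and -1.43 at the same total. For paclitaxel it was -0.97 in Pac16h and -1.14 in Pac48h, and within the limit at the same total (-0.18 and -0.53).

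TUBB6, a beta isotype of many non-neuronal tissues, was lower than TUBB in Ctrl, with a mean E-value of 3.74 ± 1.62, a median of 4.35 and a range of 0.00 to 6.15. Its median was 3.24 (range 0.00 to 5.65) in Pac16h, 3.86 (0.00 to 5.98) in Pac48h and 3.04 (0.00 to 5.77) in Cele2h. It was 2.62 (0.00 to 4.95) in cele16h and 4.96 (0.29 to 7.28) in PacCele16h. With both drugs 40 of 59 cells lay above the Ctrl median and 9 above every Ctrl cell. The TUBB6 difference in PacCele16h passed the limit on the spike-in scale (1.06) but not at the same total (0.42). In Pac48h it was -0.02 on the spike-in scale and 0.57, within the limit, at the same total. Pac48h cells of the index block that they share with Ctrl gave 0.17 for TUBB6, and 0.63, past the limit, at the same total. The TUBB6 difference in Pac16h changed sign with the scale, from -0.65 to 0.08.

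TUBB2A was at or near 0 in many cells of the 4 single-drug conditions, with medians between 0.00 and 0.92, against 3.27 in Ctrl and 3.25 in PacCele16h. It had an E-value above 0 in 78.3% of Ctrl cells (exact Clopper-Pearson 95% interval 63.6 to 89.1%, counting error only). This share was 50.0% in Pac16h, 56.6% in Pac48h, 49.2% in both celecoxib conditions and 66.1% in PacCele16h. Mean TUBB2A levels were 2.81 ± 1.78 in Ctrl, 1.35 ± 1.54 in Pac16h and 1.39 ± 1.45 in Pac48h. They were 1.28 ± 1.49 in Cele2h, 1.19 ± 1.46 in cele16h and 2.48 ± 2.18 in PacCele16h. TUBB2A was past the limit downward under all 4 single-drug treatments on both scales, as was TUBG1, with TUBB2A differences at the same total between -1.11 and -0.90. In PacCele16h it differed by -0.33, and by -0.59, just past the limit, at the same total.

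TUBB3, the neuronal class III isotype, had a mean level of 1.34 ± 1.39 in Ctrl and an E-value above 0 in 60.9% of those cells. Its means were 0.66 in Pac16h, 1.05 in Pac48h, 0.74 in Cele2h, 0.43 in cele16h and 1.55 in PacCele16h. With equal totals no TUBB3 difference passed the limit, the values running from -0.50 to -0.01. TUBB2B was near 0 throughout, with means between 0.17 and 0.64 and a value above 0 in 15.2% of Ctrl cells. It was listed because 32.8% of cele16h cells had a value, and in no other condition did it exceed the 30% of cells that the table required. No difference of TUBB2B from Ctrl passed the limit on either scale. A level this near 0 could not show a decrease, and E-values also compress an increase there. The mean linear value N of TUBB2B was 2.22 in Ctrl, 2.02 in Pac16h and 3.09 in Pac48h. It was 4.07 in Cele2h, 6.02 in cele16h and 15.6 in PacCele16h. These means rest on few cells, with a value above 0 in 7 of 46 Ctrl and 17 of 59 PacCele16h cells.

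TUBG1, the gamma tubulin of most somatic cells, had a median E-value of 6.05 (range 0.00 to 7.34) in Ctrl, 4.21 (0.00 to 6.92) in Pac16h and 4.54 (0.00 to 6.60) in Pac48h. The median was 3.78 (0.00 to 6.75) in Cele2h, 3.64 (0.00 to 6.00) in cele16h and 5.94 (0.00 to 8.01) in PacCele16h. All 61 cele16h cells and 60 of 63 Cele2h cells lay below the Ctrl median. The Ctrl range of TUBG1 began at 0.00, so no cell could lie below it. The mean difference from Ctrl was -1.46 in Pac16h, -1.28 in Pac48h, -2.14 in Cele2h and -2.34 in cele16h. At the same total these were -0.69, -0.66, -1.63 and -1.08, all still past the limit. In PacCele16h the sign depended on the scale, with 0.06 on the spike-in scale and -0.59, just past the limit, at the same total. In Pac48h the cells of index block 4, which they share with Ctrl, gave -0.95 for TUBG1 and -0.44, within the limit, at the same total.

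For each of the 10 members the 6 condition means were put in order, and none of the 5 gaps between neighbouring conditions was larger than the greater of their SDs over cells. That SD is the spread of single cells and not of the means, so the comparison does not show that neighbouring conditions were alike. TUBA1B, TUBA1C and TUBB shared one order, PacCele16h, Ctrl, Pac16h, Pac48h, Cele2h and cele16h from high to low.

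Counted over the family, 9 of the 10 members were down past the limit in Pac16h, where 37.3% of all genes were. None was up, against 0.0931% of all genes. With equal totals 2 members were down in Pac16h, TUBB2A and TUBG1, against 10% of all genes, and none was up (1.4%). In Pac48h 6 members were down (26.6% of all genes) and TUBA1A was up (0.921%). Scaled to one total, 3 were down, TUBA1B, TUBB2A and TUBG1 (5.77% of all genes), and TUBA1A was up (3.28%). After 2 h of celecoxib 8 members were down (25.7%) and none up (1.12%), and 6 were down at the same total (8.11%) and none up (3.31%). Those 6 were TUBA1B, TUBA1C, TUBB, TUBB2A, TUBB4B and TUBG1. After 16 h of celecoxib 9 were down (43.9%) and none up (0.383%). The same 6 members as at 2 h were down at the same total (7.95%), and none was up (7.38%). With both drugs 2 members were up, TUBA1A and TUBB6 (30.4% of all genes), and none was down (1.76%). With equal totals TUBA1A was up (5.95%) and TUBB2A, TUBB4B and TUBG1 were down (5.79%). The median over the 10 members at the same total was -0.13 in Pac16h, -0.31 in Pac48h, -1.08 in Cele2h, -0.99 in cele16h and -0.21 in PacCele16h. All 5 comparisons share the Ctrl cells. The shares of all genes also cover weakly expressed genes, whose changes E-values understate.

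**Figure D2:**
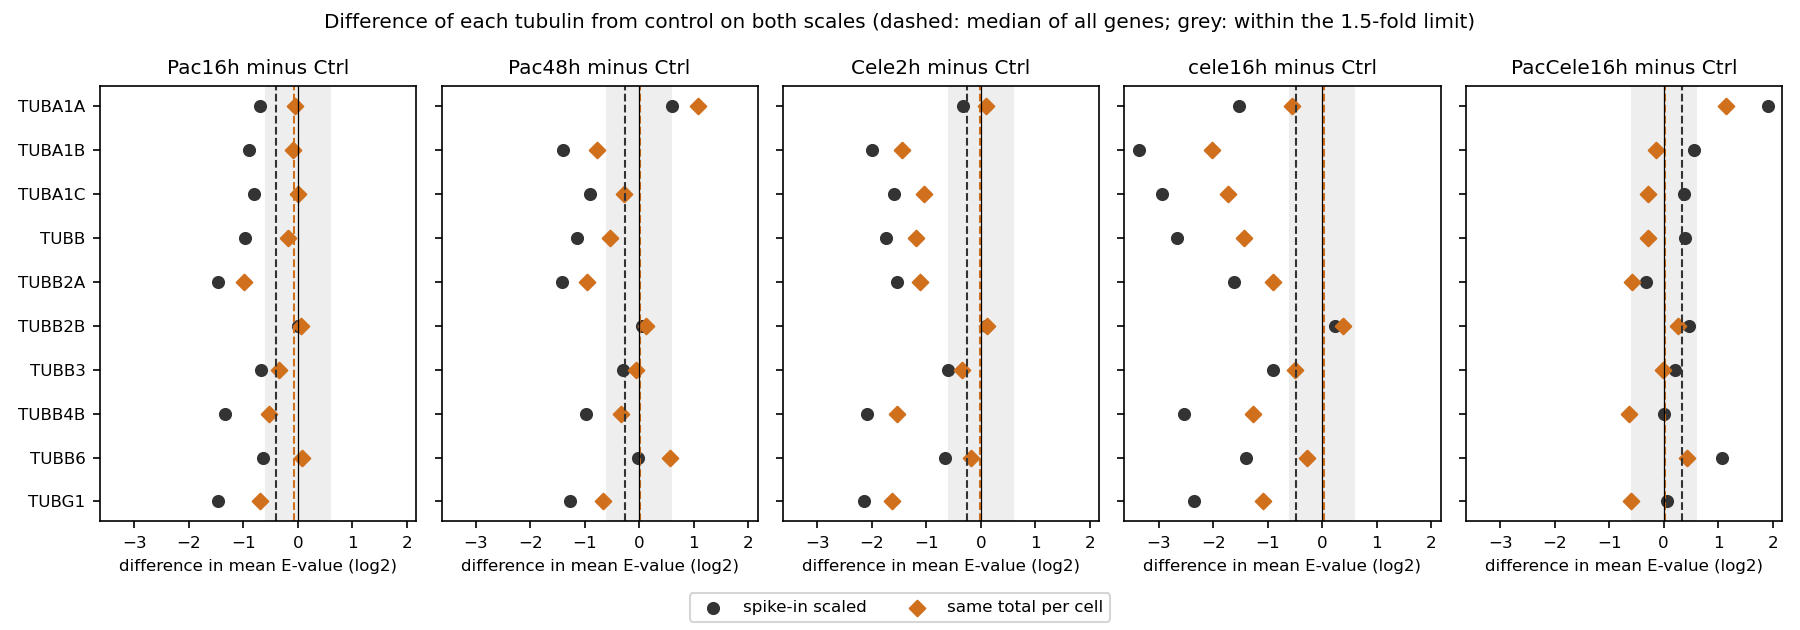
Difference in mean E-value (log2) of each tubulin gene between each treatment and Ctrl, as deposited (circles) and with every cell set to the same total (diamonds), with the median of all genes as dashed lines in the matching colours. Under celecoxib, TUBA1B, TUBA1C, TUBB, TUBB2A, TUBB4B and TUBG1 lie left of the grey band on both scales, and TUBA1A lies right of it on both scales in PacCele16h and Pac48h.

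The direct comparison of both drugs with a single drug was made at 16 h. Against Pac16h 9 members were up in PacCele16h (62.4% of all genes) and none was down (0.031%). With equal totals TUBA1A was the one member up, by 1.20 (9.56% of all genes), and none was down (1.63%). Against cele16h 9 members were up (66% of all genes) and none was down (0.0414%). With equal totals 6 members were up, against 5.03% of all genes, and none was down (4.39%). They were TUBA1B (1.89), TUBA1A (1.70), TUBA1C (1.44), TUBB (1.15), TUBB6 (0.70) and TUBB4B (0.64). Part of the PacCele16h cells shared an index block with each single-drug condition. Within block 1, 34 PacCele16h cells exceeded the Pac16h cells in TUBA1A by 2.70, and by 1.24 at the same total. Within block 3, 25 PacCele16h cells exceeded the cele16h cells in TUBA1B by 3.76, and by 1.82 at the same total. The identifier in the descriptions still differs between these groups.

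Over time in paclitaxel, 2 members were up in Pac48h against Pac16h, TUBA1A by 1.3 and TUBB6 by 0.63 (7.88% of all genes), and none was down (0.352%). With equal totals TUBA1A was up by 1.14 (6.18%) and TUBA1B was down (-0.69, 1.18%). Over time in celecoxib, 5 members were down in cele16h against Cele2h (19.3%) and none was up (0.528%). The 3 alpha tubulins were down at the same total, TUBA1C (-0.69), TUBA1A (-0.66) and TUBA1B (-0.59), against 3.9% of all genes, and none was up (7.87%). TUBG1 differed by 0.55 at the same total, within the limit.

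Summing the linear values N gave the alpha and beta pools of a cell. The median alpha pool was 5170 in Ctrl and 422 in cele16h, 12.3-fold lower. It was 2.48-fold lower in Pac16h, 2.44-fold lower in Pac48h and 4.15-fold lower in Cele2h. The beta pool was 1773 in Ctrl, and 2.36-fold, 1.84-fold, 3.21-fold and 6.33-fold lower in these 4 treatments in the order Pac16h, Pac48h, Cele2h and cele16h. These are ratios of medians over cells, and for the alpha pool the ratio of means was smaller, at -2.63 in place of -3.62 on the log2 scale in cele16h and -1.35 in place of -2.05 in Cele2h. In PacCele16h the alpha pool was 1.32-fold and the beta pool 1.18-fold higher than in Ctrl on the spike-in scale. The direction of the alpha pool with both drugs was not stable, since index block 3 alone gave a log2 ratio of -0.18 and the share of the transcript total gave -0.23. As a share of the summed values of the 9664 listed genes of a cell, the alpha pool took a median of 0.333% in Ctrl. It took 0.276% in Pac16h and 0.287% in Pac48h. The alpha share was 0.149% in Cele2h, 0.0858% in cele16h and 0.285% in PacCele16h. The beta share was 0.129% in Ctrl, 0.0539% in Cele2h and 0.0587% in cele16h. The beta share in the conditions with paclitaxel was 0.0954% in Pac16h, 0.107% in Pac48h and 0.0913% in PacCele16h. On this scale 56 of 63 Cele2h cells lay below the Ctrl median for either pool.

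The ratio of the alpha to the beta pool within a cell does not depend on the spike-in. Its median on the log2 scale was 1.37 (SD 0.50) in Ctrl, 1.62 (0.62) in Pac16h and 1.29 (0.66) in Pac48h. It was 1.38 (0.90) in Cele2h, 0.66 (0.89) in cele16h and 1.56 (0.48) in PacCele16h. The cele16h median was the lowest of the 6, and its distance from Ctrl was within the SD over cele16h cells. In cele16h the alpha pool was thus lower by more than the beta pool, and at 2 h of celecoxib the ratio lay beside that of Ctrl.

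The share of an isotype within the pool of a cell does not depend on the spike-in either, whereas a share of values summed over cells weights each cell by its scaled level. TUBA1B made up between 73.5 and 78.6% of the summed alpha values in every condition, and between 73.8 and 78.1% in the median cell. Of the summed values, TUBA1A made up 4.71% in Ctrl, 5.34% in Pac16h, 11.3% in Pac48h, 8.58% in Cele2h, 8.81% in cele16h and 10.1% in PacCele16h. The median TUBA1A share of a cell was 3.56% in Ctrl, 12.4% in Pac48h and 9.20% in PacCele16h. It lay above the Ctrl median in 44 of 53 Pac48h cells and 52 of 59 PacCele16h cells, against 28 of 56 Pac16h cells. The TUBA1A share was also above it in 50 of 63 Cele2h and 42 of 61 cele16h cells, where TUBA1B was lower and TUBA1A was not raised. Shared reads between the 3 alpha genes bear on these shares, and their part in them was not tested.

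Of the beta values summed over Ctrl cells, TUBB4B made up 48.3%, TUBB 34.9%, TUBB6 9.53% and TUBB2A 5.58%. The summed TUBB4B share was lowest in PacCele16h, at 37.1%, where the median cell had 34.6% against 46.1% in Ctrl. In cele16h the 2 ways of taking it differed, with 47.7% of the summed values and 39.4% in the median cell. TUBB6 made up more of the summed values in every treatment than in Ctrl, between 12.3% in Pac16h and 17.5% in Pac48h, and its median share of a cell was 9.28% in Ctrl, 11.5% in Pac16h and 16.5% in Pac48h. By cell, the TUBB6 share lay above the Ctrl median in 47 of 59 PacCele16h and 40 of 53 Pac48h cells. TUBB3 made up between 1.13 and 2.32% and TUBB2B at most 1.33%.

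**Figure D3:**
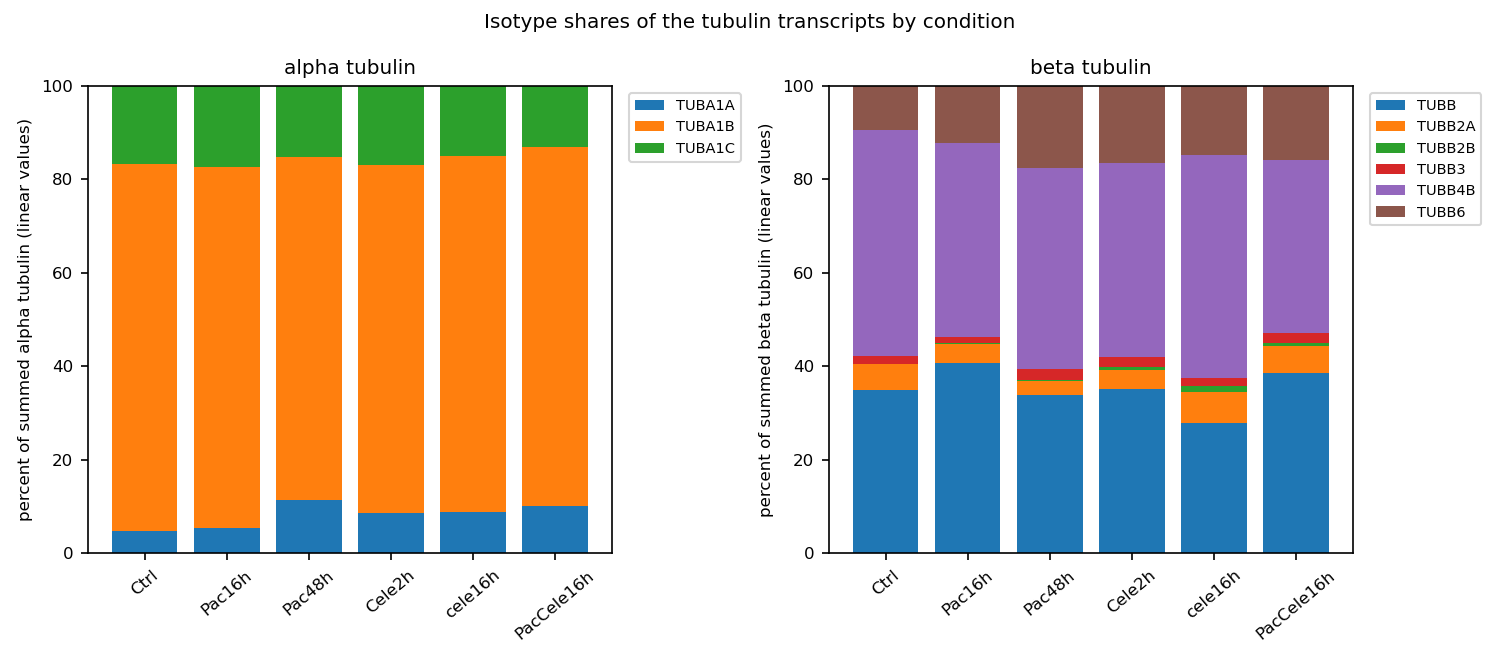
Share of each isotype, in percent of the summed linear values over the cells of a condition, for the alpha tubulins (left) and the beta tubulins (right). TUBA1B stays between 73.5 and 78.6% of the alpha pool, TUBA1A grows from 4.71% in Ctrl to 11.3% in Pac48h, and TUBB6 grows from 9.53% of the beta pool to 17.5%.

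Cells of one condition differed from each other in tubulin level, and the members that were high in the same cells were compared at the same total after centring on the condition mean. These correlations describe 338 cells that share conditions and transcript totals, and carry no test. Pearson's r was 0.70 between TUBA1B and TUBB, 0.63 between TUBA1B and TUBB4B, 0.53 between TUBB and TUBB4B and 0.50 between TUBA1B and TUBA1C, which also share reads. TUBG1 had an r of 0.46 with TUBB and 0.45 with TUBA1B. TUBB6 reached 0.32 with TUBB4B. TUBA1A stood apart, with r between -0.10 and 0.09 to each of the other 9 members. TUBB3 likewise had r between -0.04 and 0.10.

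**Figure D4:**
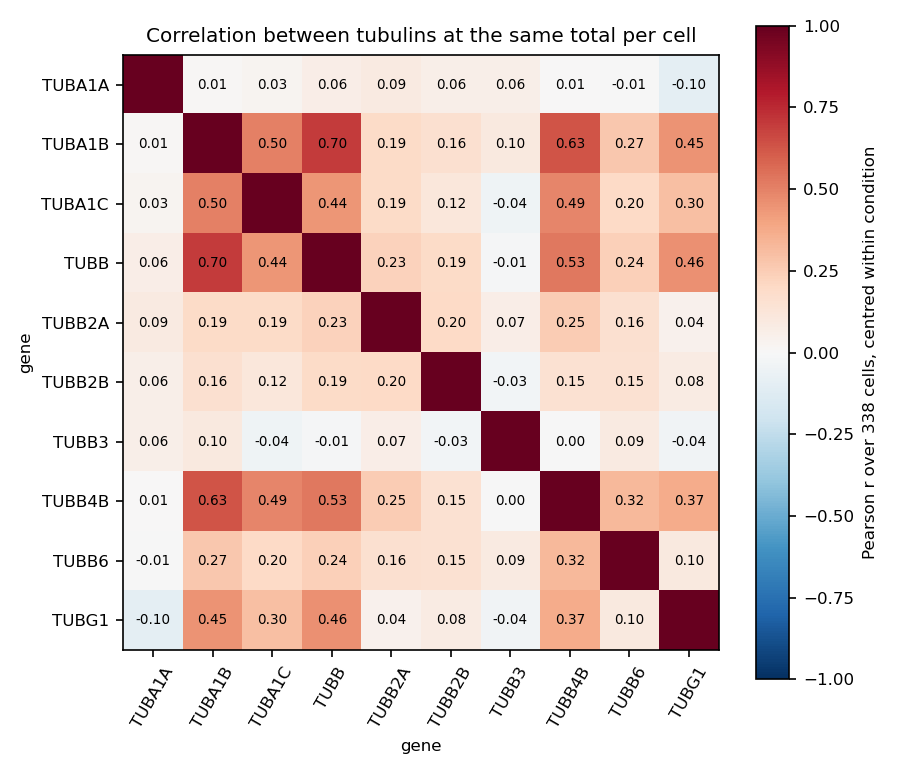
Pearson's r between the tubulin genes over 338 cells at the same total per cell, each gene centred on its condition mean, with the gene on both axes and the colour running from -1 to 1. TUBA1B, TUBA1C, TUBB, TUBB4B and TUBG1 form a block with r between 0.30 and 0.70, and TUBA1A and TUBB3 stay between -0.10 and 0.10 with all others.

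Among 6540 genes with a value in at least 50% of the cells, the genes most like TUBA1B were PBK (r = 0.61), a mitotic kinase, and UBE2T (0.60) and UBE2C (0.59), both ubiquitin-conjugating enzymes. UBE2C (0.47), PBK (0.45) and the proliferation marker MKI67 (0.44) were most like TUBA1C. The genes most like TUBB were CENPW (0.50), a kinetochore protein, PBK (0.45) and AURKB (0.45), the kinase of the chromosomal passenger complex. TUBB4B was most like PBK (0.55), AURKB (0.53) and BIRC5 (0.52), and TUBG1 most like PBK (0.46), AURKB (0.44) and TRIP13 (0.43). The highest values for TUBA1A (0.30, with TMSB10), TUBB6 (0.28), TUBB2A (0.25), TUBB2B (0.25) and TUBB3 (0.21) were weak and are not read further.

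A G2/M score was taken as the mean E-value, at the same total, of 51 genes of the G2/M list of Seurat after TUBB4B, the one member on that list, was left out. Its mean was 2.62 ± 0.86 in Ctrl, 2.22 ± 0.95 in Pac16h and 1.93 ± 0.99 in Pac48h. It was 2.11 ± 1.06 in Cele2h, 1.78 ± 1.08 in cele16h and 1.84 ± 0.91 in PacCele16h. The score thus also moved with the conditions, and its part in the tubulin differences was not tested. Within conditions, the pooled r with this score was 0.59 for TUBA1B, 0.56 for TUBB4B, 0.48 for TUBA1C, 0.47 for TUBB and 0.44 for TUBG1. It was 0.22 for TUBB6 and -0.02 for both TUBA1A and TUBB3. For TUBA1B it ranged over the 6 conditions from 0.34 in PacCele16h to 0.69 in both Ctrl and cele16h. TUBA1A ranged from -0.37 in PacCele16h to 0.34 in cele16h. The transcript total of a cell also ran with TUBA1B at the same total, with r between 0.07 in PacCele16h and 0.46 in Ctrl.

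**Figure D5:**
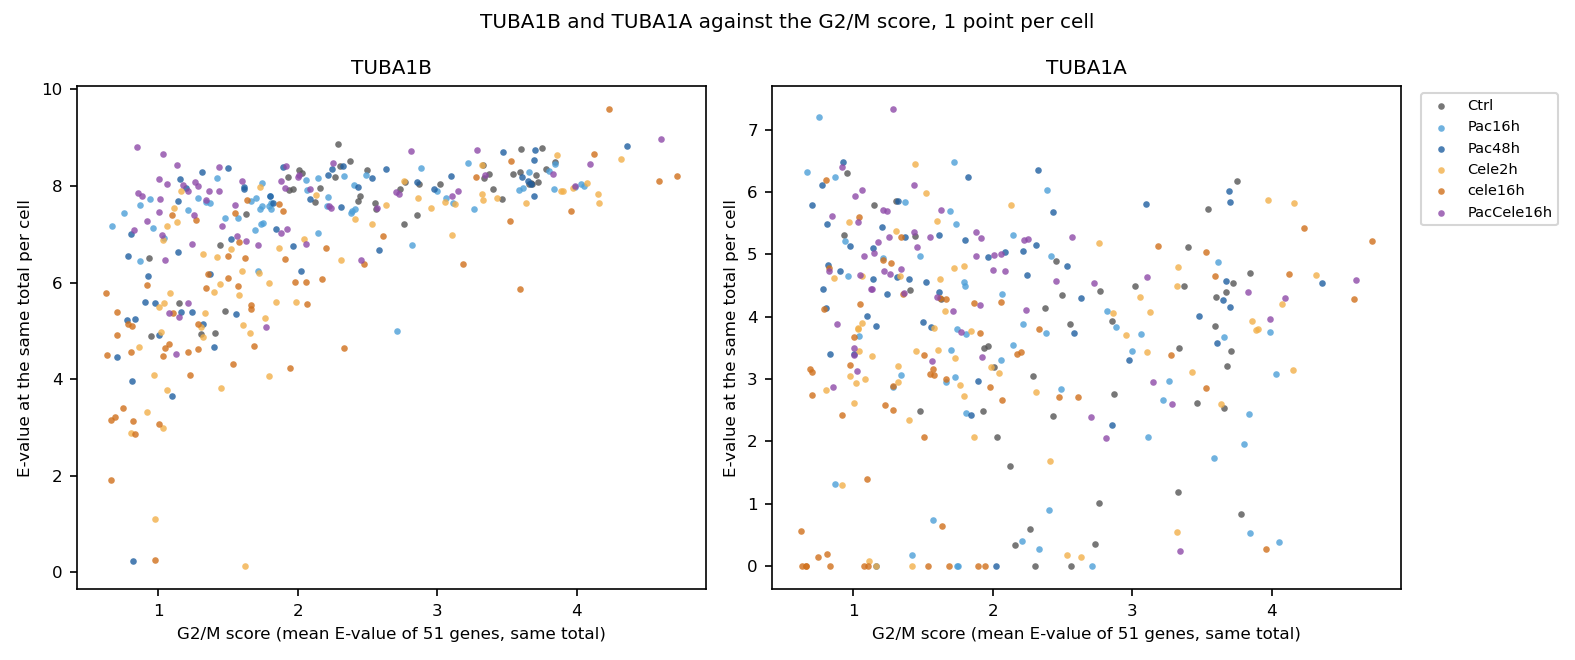
Level of TUBA1B (left) and TUBA1A (right) at the same total per cell against the G2/M score, the mean E-value of 51 genes, with 1 point per cell coloured by condition. TUBA1B runs with the score (pooled within-condition r = 0.59 over 338 cells) and TUBA1A does not (r = -0.02).

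The authors' deposited annotation gives each cell a state, which was derived from the expression of the same cells, so the values that follow are a description. In Pac48h 25 cells were annotated Suppressive and 28 Control. TUBA1B had a mean E-value of 5.98 ± 1.92 in the former and 7.63 ± 1.3 in the latter, a difference of -1.65, and of -0.93 at the same total. TUBB differed by -1.69, and by -1.0 at the same total. TUBA1A was 3.92 ± 1.55 and 4.92 ± 1.06, and both lay above the Ctrl mean of 3.85. In Pac16h the 31 Suppressive and 23 Control cells differed in TUBA1B by -1.03, and by -0.21 at the same total. In Cele2h (33 and 26 cells) the TUBA1B difference was -1.62, and -1.0 at the same total.

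Of 12 further tubulin genes looked for, TUBB4A, TUBD1, TUBE1 and TUBG2 were listed. All 4 were up in PacCele16h, where 30.4% of all genes were, and 1 at the same total (5.95% of all genes). That gene was TUBE1, the epsilon tubulin of centrioles (1.67, and 1.01 at the same total), and TUBD1 (1.00 and 0.53) and TUBG2 (0.79 and 0.44) were within the limit at the same total. TUBE1 was also up in Cele2h, by 0.88 and by 1.24 at the same total, where the main alpha and beta isotypes were down. In cele16h 1 of the 4 genes was up at the same total (7.38% of all genes). That gene was again TUBE1, whose PacCele16h level differed by 1.01 from Ctrl and by -0.29 from cele16h on that scale. TUBD1, the delta tubulin, was down in Pac16h (-0.84) and in Pac48h (-0.65), with values of -0.48 and -0.25, within the limit, at the same total.

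The counts of the gene groups that follow are read against the share of all genes down in Pac16h (37.3%), Pac48h (26.6%), Cele2h (25.7%) and cele16h (43.9%), and up in PacCele16h (30.4%). For the same total the shares of all genes down were 10%, 5.77%, 8.11% and 7.95% in that order, and 5.95% were up and 5.79% down in PacCele16h. The shares up at the same total were 1.4% in Pac16h, 3.28% in Pac48h, 3.31% in Cele2h and 7.38% in cele16h. In each group the genes named are the 3 with the largest differences past the limit on the spike-in scale in a treatment, or all where fewer passed. A second value in parentheses is the difference at the same total.

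The folding of tubulin needs prefoldin, which delivers new chains to the chaperonin, and the cofactors TBCA to TBCE, which assemble the dimer. Of 13 such genes, 8 were down in Pac16h, 6 in Pac48h, 5 in Cele2h and 10 in cele16h, and 8 were up in PacCele16h. With equal totals 1, 0, 1 and 1 were down in the single-drug conditions, 1 each was up in Pac16h and Cele2h, and none passed the limit with both drugs. The median over the 13 was -0.02 in Cele2h and -0.03 in cele16h at the same total, beside -1.08 and -0.99 over the 10 tubulins. A decrease on this scale was not limited to tubulins. The 51 G2/M genes had medians of -0.35 in Cele2h and -0.62 in cele16h, with 16 and 27 of them down. For 42 genes of the S-phase list of Seurat the medians were -0.33 and -0.53, with 12 and 18 down. In Pac16h the folding genes named were TBCC (-1.32 and -0.79), VBP1 (-1.12 and -0.38) and TBCB (-1.07 and -0.28). In Pac48h they were VBP1 (-0.97 and -0.38), PFDN4 (-0.93 and -0.32) and PFDN2 (-0.92 and -0.29). VBP1, PFDN2 and PFDN4 are subunits of prefoldin, and TBCC is the cofactor that triggers GTP hydrolysis in the last step. In Cele2h TBCC (-1.06 and -0.62), VBP1 (-0.85 and -0.31) and TBCB (-0.77 and -0.20) led. In cele16h PFDN2 (-1.93 and -0.56), VBP1 (-1.92 and -0.69) and PFDN4 (-1.77 and -0.51) led. With both drugs TBCA (1.23 and 0.53), ARL2 (1.11 and 0.45) and TBCE (0.78 and 0.26) were up, all within the limit at the same total.

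The gamma tubulin ring complex and its anchors (11 genes) had 3, 3, 1 and 6 genes down in Pac16h, Pac48h, Cele2h and cele16h, and 3 up in PacCele16h. Their numbers down were 0, 1, 0 and 1 at the same total, and none passed the limit with both drugs. Their median at the same total was 0.17 in Cele2h and -0.18 in cele16h, beside -1.63 and -1.08 for TUBG1 itself. MZT1, a small subunit that recruits the ring, was down in Pac16h (-1.13 and -0.53), Pac48h (-1.19 and -0.70), Cele2h (-0.70 and -0.23) and cele16h (-1.22 and -0.21). NEDD1, which anchors the ring at the centrosome, was down in Pac16h (-0.75 and -0.36) and Pac48h (-0.76 and -0.46). The ring proteins TUBGCP4 in Pac16h (-0.68 and -0.38) and TUBGCP3 in Pac48h (-0.69 and -0.36) were also down. MZT2B and MZT2A were down in cele16h (-1.76 and -0.39 for the former, -1.71 and -0.41 for the latter) and up in PacCele16h on the spike-in scale alone (0.77 and 0.08, and 0.67 and -0.01). TUBGCP5 was up in PacCele16h (0.92 and 0.44).

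Microtubule regulators (19 listed of 21) were down for 9 genes in Pac16h, 8 in Pac48h, 7 in Cele2h and 11 in cele16h, and 6 were up in PacCele16h. The numbers down were 2, 2, 1 and 1 at the same total, with 2 up in cele16h, and with both drugs 2 were down and none up. MAPRE1 and MAPRE2 are end-binding proteins of growing microtubules. In Pac16h MAPRE2 (-1.41 and -0.90), MAPRE1 (-1.39 and -0.77) and CKAP2 (-1.02 and -0.33) led the decreases. In Pac48h the spindle assembly factor TPX2 (-1.12 and -0.70), STMN1 (-1.08 and -0.45) and MAPRE2 (-1.06 and -0.58) led. STMN1, or stathmin, sequesters tubulin dimers. In Cele2h MAPRE2 (-1.12 and -0.69), the polymerase CKAP5 (-0.82 and -0.29) and CKAP2 (-0.80 and -0.31) led. In cele16h STMN1 (-2.61 and -1.25), CKAP5 (-1.32 and -0.07) and TPX2 (-1.27 and -0.42) led. MAP1B (1.23 and 0.56), KATNA1 (0.87 and 0.27) and CLIP1 (0.83 and 0.33) were up in PacCele16h, all within the limit at the same total.

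Enzymes that modify tubulin (16 listed of 17) were down for 4, 3, 4 and 4 genes in the single-drug conditions and 5 were up in PacCele16h. With equal totals 1 was down in each of the 5 treatments, 2 were up in cele16h and 1 in PacCele16h. TPGS2, a subunit of the polyglutamylase complex, was down in Pac16h (-1.59 and -0.90), Pac48h (-0.90 and -0.32), Cele2h (-1.07 and -0.55) and cele16h (-2.14 and -0.98). TTLL4, a glutamylase, was down in Pac16h (-0.75 and -0.43), Pac48h (-0.90 and -0.61), Cele2h (-1.13 and -0.84) and cele16h (-0.98 and -0.49). The acetyltransferase ATAT1 was down in Pac48h (-0.69 and -0.47). SIRT2, a deacetylase, was down in Pac16h (-1.07 and -0.49) and Cele2h (-0.86 and -0.43), and its direction in cele16h depended on the scale (-0.84 and 0.13). With both drugs SVBP (1.19 and 0.56), TTLL1 (1.19 and 0.65) and SIRT2 (0.93 and 0.33) were up.

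Of the 3 genes of tubulin mRNA autoregulation, 2 were down in Pac16h, none in Pac48h, 1 in Cele2h and 2 in cele16h. With equal totals 1 was down in Pac16h and none in the other treatments. On that scale 1 was up in Cele2h (3.31% of all genes) and 1 in cele16h (7.38%). TTC5 was down in Pac16h (-1.01 and -0.62), Cele2h (-0.69 and -0.33) and cele16h (-1.13 and -0.45). CNOT11, which links TTC5 to the deadenylase together with SCAPER, was down in Pac16h (-0.59 and -0.21) and cele16h (-0.80 and -0.20). SCAPER was up in Cele2h (0.63 and 0.80) and in PacCele16h (0.79 and 0.43).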

How the data were processed

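Smart-seq2 libraries of 338 retained cells out of 372 were used. The authors removed adapters with Trim Galore, mapped reads to hg38 transcripts (GENCODE version 28) and 3 spike-ins with Bowtie2, and took TPM from RSEM 1.3.0. The deposited E-values are on a log2 scale, log2(N/10 + 1), and cover genes found in more than 30% of cells in some condition. Linear values N were recovered, and mean E-values were compared with those of control cells against a limit of log2 of 1.5. Differences on this scale understate changes of weakly expressed genes. No test was made, since no condition has a replicate sample. Scripts were checked on cells resampled from Ctrl, with 4-fold changes put into genes found in at least 50% of them. Of these, 89 to 94% of raised and 72 to 83% of lowered genes passed the limit. So did 0.69 to 2.24% of unchanged genes. Smaller changes, weakly detected genes and shifts in the transcript total were not covered. The members and lists were chosen with earlier results of these data known. All 10 members are described. List genes were named by the largest differences past the limit, up to 3 per direction, list and treatment. Gene coordinates and the transcripts compared for identity and shared windows are from GENCODE version 44, not from version 28 to which reads were mapped. Promoter windows are from RefSeq. Alternatives were the same total per cell, linear means, a pseudocount of 1, medians, single index blocks, no cells of wells noted as 0 or debris, and a 50% detection limit. R 4.3.3 with Seurat 5.3.0 gave the G2/M list, and all else was run in Python 3.11.15 (pandas 2.3.3, numpy 2.4.6, scipy 1.17.1).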

Additional observations from a re-analysis of the deposited data

How the results depend on the processing

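A value counts here as changed when it moved by over 0.29 on the log2 scale or 5 percentage points, or a count of members by over 1.5 times. Setting every cell to the same total changed most. It left 2 members down in Pac16h and 3 in Pac48h, and in PacCele16h 1 up and 3 down. It turned the TUBB6 difference in Pac16h to 0.077. On the spike-in scale no member was up in Pac48h by linear means, by the median over cells or in index block 4 alone. In that order, 712, 230 and 170 of the 9664 genes were up there. Linear means put 1 member, TUBB2B, up in Cele2h and in cele16h, and 4 members up in PacCele16h. In these conditions 709, 266 and 6973 of all genes were up. By linear means 5766 of all genes were down in Pac16h, 4246 in Pac48h, 3772 in Cele2h and 7337 in cele16h. As deposited these numbers were 3603, 2571, 2486 and 4241. With a pseudocount of 1, 1 member was up in cele16h (231 of all genes) and 1 was down in PacCele16h (867). Medians over cells also gave 1 down in PacCele16h (684 of all genes). As a share of the total, the log2 ratio of the alpha pool to Ctrl was -0.27 in Pac16h, -0.22 in Pac48h, -1.16 in Cele2h, -1.96 in cele16h and -0.23 in PacCele16h. For the beta pool this was -0.44, -0.27, -1.26, -1.14 and -0.50 in the same order. Means over cells gave -0.89, -0.93, -1.35 and -2.63 for the alpha pool under the single drugs and -2.16 for the beta pool in cele16h. Index block 3 alone put the alpha pool of PacCele16h at -0.18, and blocks 2 and 4 put the beta pool of Pac48h at -1.20 and -0.59. The causes of these changes were not tested, except that the same total removes the difference in transcript total by construction. The other 95 alternative values of these counts, pools, ratios and shares were within those bounds. Of the alternative values of single members, 299 were within them, 105 were beyond and 1 changed sign. Leaving out wells noted as 0 or debris, which held 1 cell, changed no value beyond those bounds. The 50% detection limit could not change the value of a member, because it only drops genes, and of the members it dropped TUBB2B alone. Its values are among those counted as within the bounds.

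No paired analysis was possible because nothing in the descriptions links a cell of one condition to a cell of another. Condition, its identifier in the descriptions and, for Pac16h, Cele2h, cele16h and Ctrl, the index block cannot be told apart. The read depth per cell is unknown, so an E-value of 0 does not show absence, which limits TUBB2A, TUBB2B and TUBB3 most. Reads shared by TUBA1A, TUBA1B and TUBA1C, by TUBB2A and TUBB2B and by TUBB3 with an overlapping gene model limit the split between them.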
